A study of Sus scrofa with 7 samples.

Results

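The genes described here encode the protein folding and secretory machinery of the endoplasmic reticulum (ER): the factors that move a nascent secreted protein across the ER membrane, fold it, join its disulphide bonds, attach N-glycans, remove misfolded copies and load the rest into COPII vesicles, together with the sensors and transcription factors of the unfolded protein response. Members were taken by symbol from a list of 60 genes, and 52 were found among the 29510 genes listed. Of the 8 symbols not found by name, PDIA3 was listed under the older name GRP-58, PDIA6 under PDI-P5 and SEC61A1 without a name. These 3 were matched by Ensembl identifier and are given apart from the members. P4HB, ERO1LB, HERPUD1, DERL2 and SEC23A were not analysed here. The 52 members comprise 7 stress sensors and transcription factors, 10 translocation and signal peptidase genes, 12 chaperones and cofactors, 4 oxidative folding genes, 5 oligosaccharyltransferase subunits, 6 ER-associated degradation genes and 8 genes of the COPII coat and cargo receptors.

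Cells that export much protein are known for a large ER, and unfolded protein in that compartment activates the membrane-bound sensors IRE1 (the product of ERN1), PERK and ATF6, which together raise transcription of chaperones, degradation factors and vesicle genes. In the mammalian blastocyst the hypoblast, or primitive endoderm, gives rise to visceral and parietal endoderm. These tissues secrete plasma-type carrier proteins and basement membrane. Extra-embryonic endoderm (XEN) cells are the cultured counterpart of that lineage, whereas embryonic stem cells (ESCs) correspond to the epiblast.

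RNA was sequenced from 7 porcine lines, 1 library per line: 3 pXEN lines, 2 naïve-like ESC lines (nESCs) and 2 primed ESC lines. The pXEN lines 1, 2 and 3 (passages 26, 26 and 23) were derived from inner cell masses of parthenogenetic blastocysts and grown on mouse embryonic fibroblasts in LCDM medium, which contains LIF, CHIR99021, dimethindene and minocycline. The nESC lines 1 and 2 (passages 21 and 22), also of inner cell mass origin, were kept on mouse embryonic fibroblasts in LBX medium with FGF, LIF, PD0325901, CHIR99021, SB431542 and doxycycline. The primed lines 1 and 2 (passage 20 each), which the labels describe as converted from naïve-like cells, were kept on STO feeder cells with activin A, basic FGF, EGF and LIF. Cell type, medium and, for primed cells, feeder therefore changed together and cannot be told apart. Because replicates are lines, p-values measure the spread between these lines. In bulk RNA fewer cells of a type and less RNA per cell cannot be told apart.

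Libraries held 10408164 to 12995720 counts, and 17447 genes, among them 51 members, had enough counts to be tested. The labels were checked against marker genes. GATA4 lay at 239, 188 and 239 FPKM (fragments per kilobase of gene length, scaled to library size) in the pXEN lines and at no more than 0.0834 FPKM in any ESC library. Of 7 extra-embryonic endoderm markers, 6 could be tested, and against either ESC type pXEN cells had 6 of 6 higher. The ESC markers reported here were split. SOX2 lay at 102 to 154 FPKM in the ESC libraries and at 0, 1.98 and 0 FPKM in pXEN lines 1 to 3, and ESRRB, at 0 in every pXEN library, was also called lower there. NANOG, LIN28A, SALL4 and OTX2 were instead higher in pXEN cells against either ESC type, with every difference called. SALL4 and LIN28A are known from XEN cells too. NANOG lay between 4.5 (line 2) and 15.5 FPKM in pXEN cells, at 0 and 0.148 in nESCs and 1.43 and 1.41 in primed ESCs. POU5F1 and SOX7 were at or near 0 in all 7 libraries. The paper differs on NANOG and on OCT4, the product of POU5F1. It reports NANOG in nESCs but not in pXEN cells by staining, PCR and Western blot. By staining it reports OCT4 in both ESC types. Whether the listed NANOG and POU5F1 rows measure these genes was not tested. pXEN line 2 stood apart from the other pXEN lines. Its 13 fibroblast markers summed to 266 FPKM, against 20.9 and 23.2 FPKM in lines 1 and 3, 38.0 and 49.0 in the nESC lines and 66.7 and 95.1 in the primed lines. None of the 13 was at 0 in pXEN lines 1 and 2 or primed line 1, and 1 was at 0 in pXEN line 3 and in primed line 2. In the nESC lines 5 and 2 were at 0, with LUM and DCN at 0 in both. Of the 12 tested, 5 were higher and 4 lower in pXEN cells than in nESCs, and 1 was higher and 5 lower than in primed ESCs. Counts on chromosome Y were 38 in line 2 and 0 to 11 in the other libraries. Member counts, summed levels and several members in which line 2 stood apart are also given without it. Single genes of the other lists are given only with line 2, also where it stood apart.

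The question asked of these genes was whether the secretory machinery differs between the 3 cell types, and whether it differs by the same factor as the transcripts of listed secreted proteins. Tests were edgeR quasi-likelihood tests on counts, with Benjamini-Hochberg adjustment over all 17447 genes and a call at an adjusted p under 0.05. Log2 fold changes are differences on the log2 scale, with their standard error (SE), and levels are in FPKM.

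Against nESCs the secretory machinery was higher in pXEN cells at most of its steps. Of 51 members tested, 38 (74.5%) were called higher in pXEN cells and 4 (7.84%) lower, while 9 were not called. Over all tested genes 28.3% were called higher and 26.2% lower. The median log2 fold change of the members was 0.89, against 0.00 for all tested genes. The 4 lower members were ATF6, ERN1, DERL1 and SAR1B. Without pXEN line 2, 38 members were higher and 5 lower, and without nESC line 1, 35 were higher and 2 lower.

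Against primed ESCs members were called in both directions. pXEN cells had 23 members called higher (45.1%), 16 called lower (31.4%) and 12 not called, with 23.9% of all tested genes higher and 24.4% lower. The median log2 fold change was 0.25, against -0.01 over all genes. Scaling by library totals, which moved the median of all genes to -0.19, gave 17 higher and 20 lower in place of 23 and 16. Of the 16 lower members, 9 were chaperones, and the others lay in roles that also held higher members. A difference between roles was not tested. Without pXEN line 2, 24 members were higher and 20 lower. Leaving out a primed line left 14 higher without line 1 and 13 higher and 8 lower without line 2.

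Between the ESC types the machinery was higher in the primed lines. Here 28 members (54.9%) were called higher, 1 (1.96%, ERN1) lower and 22 not called, against 19.0% and 13.3% of all tested genes. The lower members numbered 3 without pXEN line 2, which enters the shared estimate of spread, and also with upper-quartile scaling, library totals, DESeq2 or the fit of 2 groups. The median log2 fold change was 0.70, against 0.01 over all genes. The 3 comparisons share libraries, so their values are set side by side and not as independent evidence.

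Members are expressed above most genes, which bears on how often they are called. Among the 7658 tested genes with a mean of at least 10 FPKM, a background chosen after seeing the data, 31.9% were higher and 28.9% lower in pXEN cells than in nESCs. The 48 members at that level gave 75.0% and 6.25%. Against primed ESCs the shares were 27.1% and 24.1% for these genes, and 43.8% and 33.3% for the members. For primed cells against nESCs they were 19.7% and 15.3%, and 56.2% and 0%. Groups whose libraries do not overlap in FPKM were common over all tested genes. Every pXEN library lay above those of nESCs in 35.7% and below in 35.1%. Against primed ESCs these shares were 32.8% and 35.3%, and for primed ESCs against nESCs 38.0% and 34.4%. Of the 51 tested members 41 and 4, 27 and 19, and 38 and 6 were so separated.

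**Figure D1:**
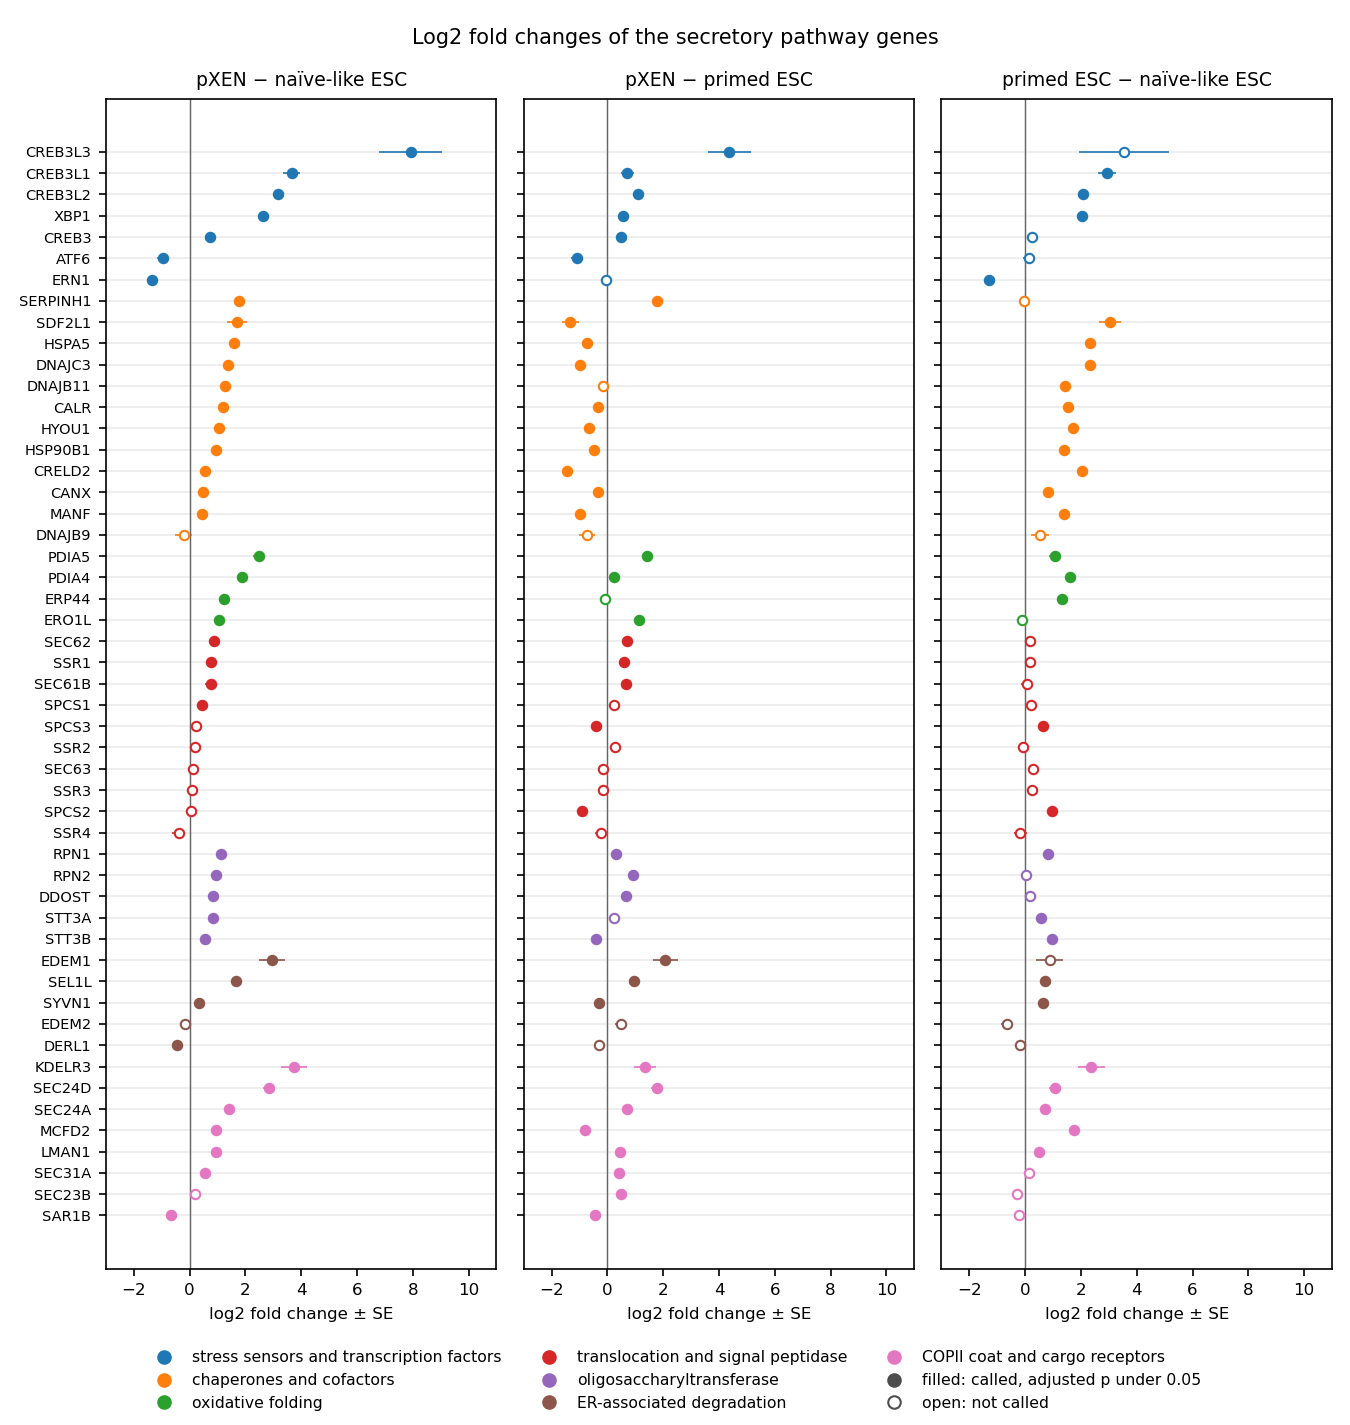
Log2 fold change (x axis, error bars SE) of the 51 tested members, coloured by role, in pXEN against naïve-like ESCs, pXEN against primed ESCs and primed against naïve-like ESCs; filled points were called at an adjusted p under 0.05. Against naïve-like ESCs pXEN cells had 11 of 12 chaperones called higher, and against primed ESCs 9 called lower. The fitted value of CREB3L3, with 0 counts in naïve-like ESCs, depends on the prior count and is no bound.

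The sensors and transcription factors held the widest range. In pXEN cells 5 of 7 were called higher than in nESCs (XBP1, CREB3, CREB3L1, CREB3L2 and CREB3L3) and 2 lower (ATF6 and ERN1), with a median log2 fold change of 2.62. XBP1, the transcription factor made active when IRE1 splices its mRNA, lay at 94.9, 110 and 94.5 FPKM in pXEN lines 1 to 3, 16.3 and 16.1 FPKM in the nESC lines and 63.1 and 71.6 FPKM in the primed lines. No 2 groups overlapped, with pXEN cells highest and nESCs lowest. The log2 fold change was 2.62 (SE 0.14, adjusted p = 4.56e-06) against nESCs and 0.58 (SE 0.13, adjusted p = 0.00648) against primed ESCs. The second call was lost without primed line 1. The listed XBP1 model is 807 bases long with no intron, so spliced and unspliced mRNA were not separated. ERN1, whose product is the nuclease that splices it, ran the other way. It was at 3.57, 3.66 and 3.76 FPKM in pXEN cells, 10.1 and 8.63 in nESCs and 4.0 and 3.66 in primed ESCs. pXEN cells were below nESCs (log2 fold change -1.36, SE 0.12, adjusted p = 5.73e-05), as were primed ESCs (-1.30, SE 0.14, adjusted p = 0.000399). Between pXEN cells and primed ESCs the libraries overlapped and no difference was called (-0.06, SE 0.13, adjusted p = 0.749).

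ATF6, the sensor that is cut in the Golgi to release a transcription factor, was lowest in pXEN cells. It lay at 7.78, 6.79 and 5.66 FPKM there, at 10.8 and 15.2 FPKM in nESCs and at 14.8 and 14.0 FPKM in primed ESCs. Log2 fold changes were -0.95 (SE 0.20, adjusted p = 0.00469) against nESCs and -1.09 (SE 0.20, adjusted p = 0.00285) against primed ESCs, while the ESC types overlapped.

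CREB3L1, CREB3L2 and CREB3L3 encode ATF6-like, membrane-bound transcription factors, known respectively from bone and other collagen-secreting cells, from cartilage and from liver. CREB3L2 lay at 35.1, 39.3 and 34.8 FPKM in pXEN cells, 3.76 and 4.37 in nESCs and 17.1 and 17.5 in primed ESCs. The groups were fully separated, by a log2 fold change of 3.16 (SE 0.15, adjusted p = 2.58e-06) against nESCs and 1.08 (SE 0.13, adjusted p = 0.000319) against primed ESCs. CREB3L1 was 10.8, 10.1 and 16.0 FPKM in pXEN cells, 1.05 and 0.883 in nESCs and 6.32 and 8.66 in primed ESCs. It was far lower in nESCs (3.65, SE 0.30, adjusted p = 3.5e-05). The call against primed ESCs (0.72, SE 0.25, adjusted p = 0.0418) was lost in 12 of 17 alternatives.

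CREB3L3 was low everywhere, at 1.18, 0.658 and 1.62 FPKM in pXEN lines 1 to 3, 0 in both nESC libraries and 0.0353 and 0.0660 in the primed libraries. Its 83 counts in pXEN cells against 0 in nESCs put it at least 10-fold higher, taking 3 counts per library as the floor (adjusted p = 0.00104). Against the 3 counts of the primed libraries the ratio was 22.5, with a 95% exact counting interval of 7.42 to 111 (adjusted p = 0.00307). Both edgeR calls held without pXEN line 2 (adjusted p = 0.000314 and 0.000861). CREB3L3 passed the low-count filter only through its pXEN counts, so these calls are no independent support. Intervals and floors cover counting error only. CREB3, the remaining member of the group, was called higher in pXEN cells in both comparisons, at log2 fold changes of 0.71 and 0.48.

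Translocation and signal peptidase genes, which act as the chain enters the ER, had the smallest median differences of the 7 roles in both pXEN comparisons. In pXEN cells 4 of 10 were called higher than in nESCs and none lower, with a median log2 fold change of 0.21. Against primed ESCs 3 were higher and 2 lower, and the median of 0.04 turned to -0.13 with library totals (2 higher and 4 lower) and -0.04 with upper-quartile scaling. The 30% and 20% against primed ESCs lay near the 23.9% and 24.4% of all tested genes. Primed ESCs had 2 of 10 higher than nESCs (20%, against 19.0% of all tested genes). The highest of the role was SSR2, a subunit of the translocon-associated TRAP complex. It lay at 375, 484 and 381 FPKM in pXEN cells, 371 and 355 in nESCs and 334 and 359 in primed ESCs. The pXEN libraries were just above the others, and neither difference was called (0.18, SE 0.13, adjusted p = 0.282 against nESCs, and 0.26, SE 0.13, adjusted p = 0.144 against primed ESCs). With library totals the first value was -0.01.

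Within this role the members did not move together. SEC62, which serves post-translational entry, SEC61B, a subunit of the channel itself, and SSR1, another TRAP subunit, were called higher against either ESC type in pXEN cells, at log2 fold changes of 0.89, 0.75 and 0.76 against nESCs and of 0.72, 0.67 and 0.60 against primed ESCs. The signal peptidase subunits SPCS2 and SPCS3 were instead highest in primed ESCs, at log2 fold changes of 0.96 and 0.66 over nESCs and with pXEN cells at -0.91 and -0.41 against primed ESCs. SEC61A1, matched by identifier, was higher in pXEN cells than in nESCs (0.41, SE 0.15, adjusted p = 0.0426).

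Chaperones and cofactors had the highest summed level of the 7 roles. In pXEN cells 11 of 12 were called higher than in nESCs and none lower, with a median log2 fold change of 1.13. Against primed ESCs 9 were called lower and 1 higher, with a median of -0.69. Primed ESCs had 10 of 12 higher than nESCs, with a median of 1.48. HSPA5 (BiP), the abundant Hsp70 chaperone of the ER, showed this order plainly. It lay at 420, 465 and 404 FPKM in pXEN cells, 142 and 143 in nESCs and 699 and 733 in primed ESCs. Log2 fold changes were 1.59 (SE 0.11, adjusted p = 1.28e-05) for pXEN cells against nESCs, -0.73 (SE 0.10, adjusted p = 0.000657) against primed ESCs and 2.31 (SE 0.12, adjusted p = 1.21e-05) for primed ESCs against nESCs.

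HYOU1 and DNAJC3, cofactors of BiP, followed the same order. HYOU1, a nucleotide exchange factor for BiP, was at 105, 86.0 and 109 FPKM in pXEN cells, 47.8 in both nESC lines and 160 and 156 in primed ESCs (1.06, SE 0.12, adjusted p = 0.00019 against nESCs, and -0.65, SE 0.11, adjusted p = 0.00228 against primed ESCs). DNAJC3, a J-domain co-chaperone, was at 19.1, 25.3 and 20.3 FPKM in pXEN cells, 8.58 and 8.15 in nESCs and 41.9 and 43.7 in primed ESCs (1.36, SE 0.16, adjusted p = 0.000227, and -0.98, SE 0.15, adjusted p = 0.000991). No library of either gene crossed into another group. DNAJB11, another J-domain protein, was at 77.5, 63.9 and 80.3 FPKM in pXEN cells, 30.3 and 31.4 in nESCs and 77.5 and 88.0 in primed ESCs. It was higher than in nESCs (1.26, SE 0.13, adjusted p = 0.000121), whereas pXEN and primed libraries overlapped (-0.16, SE 0.12, adjusted p = 0.339).

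SDF2L1, which forms complexes with BiP and J-domain proteins, lay at 17.9, 37.4 and 17.6 FPKM in pXEN lines 1 to 3, 7.76 and 7.17 in nESCs and 57.8 and 65.6 in primed ESCs. The groups were separate, and within pXEN cells line 2 was well above the others. The log2 fold change was 1.70 (SE 0.36, adjusted p = 0.00456) against nESCs and -1.33 (SE 0.31, adjusted p = 0.00904) against primed ESCs, a call lost without primed line 2. These values were 1.24 and -1.79 without pXEN line 2, both called. CRELD2, an ER stress-inducible thiol-disulphide protein, had the largest deficit against primed ESCs of any member tested with all 7 libraries, a place that SDF2L1 took without pXEN line 2. It was at 37.2, 36.9 and 29.2 FPKM in pXEN cells, 23.0 and 23.2 in nESCs and 94.3 and 96.0 in primed ESCs. That difference was -1.46 (SE 0.13, adjusted p = 7.52e-05), and the one against nESCs was 0.57 (SE 0.14, adjusted p = 0.00814), lost without nESC line 1.

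Calreticulin and calnexin, the lectins that hold glycoproteins during folding, were also higher than in nESCs and lower than in primed ESCs. CALR lay at 584, 546 and 524 FPKM in pXEN cells, 239 and 238 in nESCs and 696 and 716 in primed ESCs. Log2 fold changes were 1.20 (SE 0.10, adjusted p = 2.97e-05) against nESCs and -0.35 (SE 0.09, adjusted p = 0.015) against primed ESCs, the latter lost without either primed line. CANX, HSP90B1 (GRP94) and MANF, a secreted stress-inducible factor, also passed as higher than in nESCs, at log2 fold changes of 0.49, 0.94 and 0.43, and lower than in primed ESCs, at -0.33, -0.47 and -0.96. DNAJB9, a further J-domain cofactor of BiP, was the 1 gene of the role with no call in any comparison. It was at 14.5, 21.3 and 16.4 FPKM in pXEN cells, 24.1 and 16.0 in nESCs and 20.4 and 37.8 in primed ESCs, with overlap between every pair of groups.

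SERPINH1 (HSP47), the chaperone dedicated to collagen, was the exception among the chaperones. It lay at 1137, 1213 and 1097 FPKM in pXEN cells, 336 and 335 in nESCs and 328 and 338 in primed ESCs, the highest level per length of any member in pXEN cells but not in either ESC type. pXEN libraries stood clear of all ESC libraries, which overlapped one another. Log2 fold changes were 1.77 (SE 0.10, adjusted p = 5.22e-06) against nESCs, 1.80 (SE 0.10, adjusted p = 8.41e-06) against primed ESCs and -0.02 (SE 0.10, adjusted p = 0.892) for primed ESCs against nESCs. The SERPINH1 model listed is 635 bases long, which sets its FPKM but not its fold changes. Without pXEN line 2 the differences from nESCs and primed ESCs were 1.73 and 1.75.

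**Figure D2:**
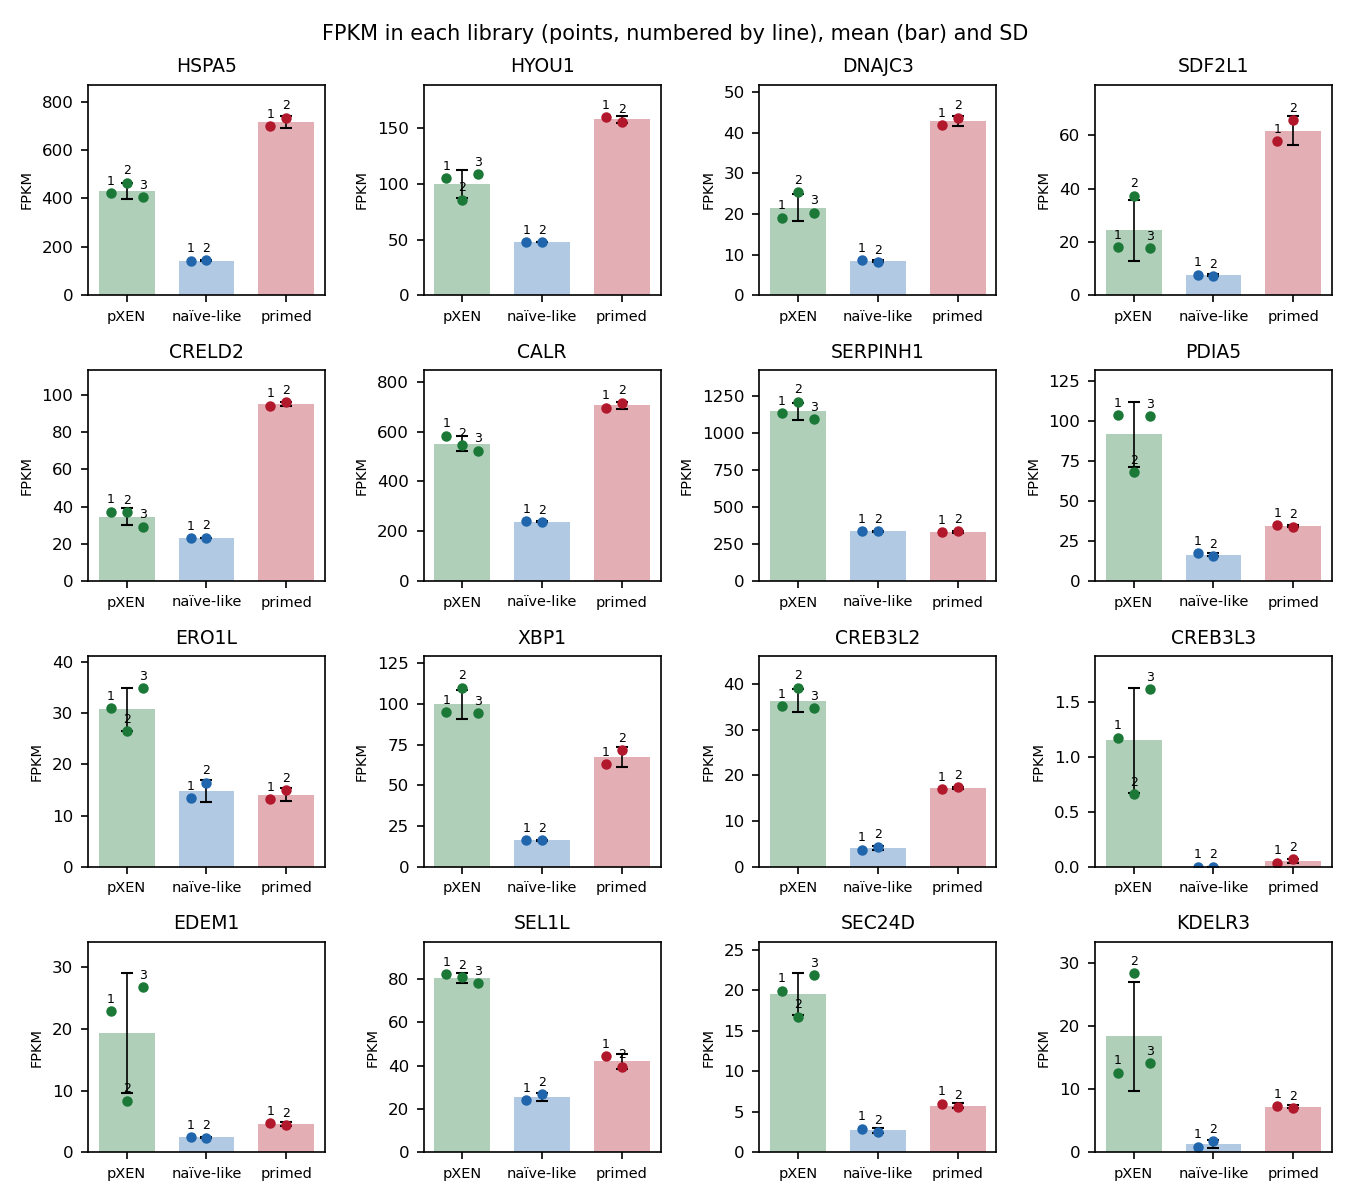
FPKM of 16 members in each library, with points numbered by line, bars at the group mean and error bars of 1 SD (3 pXEN, 2 naïve-like and 2 primed ESC lines). HSPA5, HYOU1, DNAJC3, SDF2L1, CRELD2 and CALR were highest in primed ESCs, whereas SERPINH1, PDIA5, ERO1L, XBP1, CREB3L2, CREB3L3, EDEM1, SEL1L, SEC24D and KDELR3 were highest in pXEN cells.

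Oxidative folding genes, which form and rearrange disulphide bonds, were higher in pXEN cells than in nESCs in 4 of 4 cases and higher than in primed ESCs in 3 of 4, with median log2 fold changes of 1.55 and 0.70. PDIA3 and PDIA6, matched by identifier and outside this count, were not higher than in primed ESCs. PDIA4, the most expressed of the 4 members matched by name, was at 380, 364 and 370 FPKM in pXEN cells, 102 in both nESC lines and 310 and 317 in primed ESCs. It was 1.86 higher on the log2 scale than in nESCs (SE 0.09, adjusted p = 3.2e-06). Its difference from primed ESCs of 0.25 (SE 0.09, adjusted p = 0.0423) was lost in 12 of 17 alternatives. PDIA5, a thioredoxin-domain isomerase, was at 104, 68.2 and 103 FPKM in pXEN cells, 17.2 and 15.7 in nESCs and 34.9 and 34.1 in primed ESCs. All pXEN libraries were above the others, by 2.47 (SE 0.20, adjusted p = 3.03e-05) and 1.42 (SE 0.19, adjusted p = 0.000546). Without pXEN line 2 these values were 2.65 and 1.59, both called.

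ERO1L, the oxidase that recharges the isomerases, was at 31.0, 26.5 and 35.0 FPKM in pXEN cells, 13.4 and 16.4 in nESCs and 13.2 and 14.9 in primed ESCs. pXEN cells were above both (1.04, SE 0.17, adjusted p = 0.00128, and 1.14, SE 0.17, adjusted p = 0.00102), and the ESC types overlapped. ERP44, which retains client proteins and ERO1 in the early secretory pathway, was at 21.7, 19.6 and 22.2 FPKM in pXEN cells, 9.04 and 8.71 in nESCs and 22.3 and 22.8 in primed ESCs. It was higher than in nESCs (1.25, SE 0.10, adjusted p = 3.8e-05), while the difference from primed ESCs was -0.08 (SE 0.10, adjusted p = 0.527), which was no call. The major isomerases matched by identifier were higher in pXEN cells than in nESCs, at log2 fold changes of 1.22 and 0.83: PDIA3 was at 848, 925 and 779 FPKM in pXEN cells, 377 and 353 in nESCs and 942 and 1053 in primed ESCs, and PDIA6 at 417, 423 and 405, 236 and 230, and 608 and 615 FPKM. Every pXEN library of both genes was below the primed libraries. PDIA6 was called lower (-0.55, SE 0.09, adjusted p = 0.00126), and PDIA3 was not called (-0.22, SE 0.11, adjusted p = 0.141).

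Of the oligosaccharyltransferase, which transfers the N-glycan to the chain, all 5 member subunits were higher in pXEN cells than in nESCs, by log2 fold changes of 0.55 to 1.13. Subunits outside the members were mixed, with MAGT1 and OSTC higher, KRTCAP2 lower (-0.66, SE 0.15, adjusted p = 0.00707) and DAD1 and TUSC3 not called. RPN1, the highest of the 5 members, was at 284, 238 and 274 FPKM in pXEN cells, 121 in both nESC lines and 217 and 214 in primed ESCs. The groups were separate, at 1.13 (SE 0.11, adjusted p = 6.67e-05) against nESCs and 0.31 (SE 0.10, adjusted p = 0.0373) against primed ESCs, a call lost in 12 of 17 alternatives. The catalytic subunits differed: STT3B was lower in pXEN cells than in primed ESCs (-0.42, SE 0.12, adjusted p = 0.019), and STT3A was not called (0.25, SE 0.09, adjusted p = 0.0567). RPN2 and DDOST were higher, at 0.93 and 0.67.

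Among ER-associated degradation genes, which send misfolded proteins back to the cytosol, 3 of 5 tested were higher and 1 lower in pXEN cells than in nESCs. Against primed ESCs 2 were higher and 1 lower. SEL1L, the scaffold of the HRD1 ubiquitin ligase, was at 82.2, 80.8 and 77.8 FPKM in pXEN cells, 24.1 and 26.8 in nESCs and 44.3 and 39.5 in primed ESCs. It was separate in every group (1.65, SE 0.11, adjusted p = 1.46e-05 against nESCs, and 0.95, SE 0.11, adjusted p = 0.000296 against primed ESCs). SYVN1, the ligase itself, differed little, at 0.34 and -0.29 on the log2 scale, both called. EDEM1, which helps mark misfolded glycoproteins, was at 22.9, 8.40 and 26.8 FPKM in pXEN lines 1 to 3, 2.52 and 2.41 in nESCs and 4.78 and 4.38 in primed ESCs. Even line 2 lay above the ESC libraries, and the log2 fold changes were 2.96 (SE 0.47, adjusted p = 0.00114) and 2.08 (SE 0.44, adjusted p = 0.00566), the second lost without primed line 2. They were 3.32 and 2.44 without pXEN line 2, both called. DERL1 was lower in pXEN cells than in nESCs (-0.46, SE 0.12, adjusted p = 0.0136). DERL3 was at 0.941, 0.503 and 0.421 FPKM in pXEN cells, 0.286 and 0.297 in nESCs and 0.367 and 0 in primed ESCs, and did not pass the low-count filter. Its 17 counts in pXEN cells against 6 in nESCs gave a ratio of 2.08, with a 95% exact interval of 0.782 to 6.44, so a difference was not detectable at this depth.

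COPII coat and cargo receptor genes, which act at ER exit, were higher in pXEN cells than in nESCs in 6 of 8 cases and lower in 1, and against primed ESCs 6 were higher and 2 lower. SEC24D, a cargo-binding coat subunit, was at 20.0, 16.7 and 21.9 FPKM in pXEN cells, 2.91 and 2.52 in nESCs and 6.02 and 5.55 in primed ESCs. pXEN cells were far above both (2.84, SE 0.20, adjusted p = 1.41e-05, and 1.76, SE 0.18, adjusted p = 0.000154). SEC24A, its paralog, was at 29.7, 33.5 and 27.7 FPKM in pXEN cells, 11.9 and 10.9 in nESCs and 18.6 and 18.8 in primed ESCs (1.40, SE 0.12, adjusted p = 4.71e-05, and 0.70, SE 0.12, adjusted p = 0.00184). The groups of both paralogs were separate. KDELR3, a receptor that retrieves escaped ER proteins from the Golgi, was at 12.6, 28.4 and 14.1 FPKM in pXEN lines 1 to 3, 0.929 and 1.83 in nESCs and 7.38 and 7.04 in primed ESCs. Line 2 was the highest library, and log2 fold changes were 3.73 (SE 0.47, adjusted p = 0.000339) and 1.36 (SE 0.40, adjusted p = 0.0224), the second lost without either primed line. Both were called without pXEN line 2, at 3.27 and 0.90. SEC31A, of the outer coat, was the most expressed of the role, at 90.9, 85.5 and 79.8 FPKM in pXEN cells, 57.7 and 57.9 in nESCs and 63.4 and 63.9 in primed ESCs. Both differences were called (0.56, SE 0.10, adjusted p = 0.00176, and 0.43, SE 0.10, adjusted p = 0.00704), the second lost without either primed line.

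The cargo receptor genes LMAN1 and MCFD2, whose products form 1 complex that carries coagulation factors, did not keep a fixed ratio. LMAN1 was higher in pXEN cells than in either ESC type (0.94 and 0.45), whereas MCFD2 was higher than in nESCs (0.95) and lower than in primed ESCs (-0.80). SAR1B, a GTPase that starts coat assembly, was lower in pXEN cells than in both (-0.67 and -0.45). This holds for SAR1B alone, since its paralog SAR1A is counted among the further vesicle genes.

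Other genes of the pathway were taken from 7 further lists. Of 84 tested, 43 (51.2%) were higher and 7 (8.33%) lower in pXEN cells than in nESCs, where all tested genes gave 28.3% and 26.2%. Against primed ESCs 25 (29.8%) were higher and 15 (17.9%) lower, nearer to the 23.9% and 24.4% of all tested genes. With library totals the counts were 36 and 18 against nESCs and 22 and 23 against primed ESCs, where all tested genes gave 24.5% and 32.9%, and 19.8% and 31.0%. Of the collagen modification genes, 8 of 8 were higher than in nESCs and 7 of 8 higher than in primed ESCs, at median log2 fold changes of 1.52 and 2.03. PLOD2, a lysyl hydroxylase of collagen, was at 291, 157 and 319 FPKM in pXEN cells, 15.4 and 12.7 in nESCs and 17.3 and 18.7 in primed ESCs (4.18, SE 0.32, adjusted p = 2.43e-05, and 3.84, SE 0.32, adjusted p = 5.32e-05). P4HA3, a prolyl hydroxylase subunit, was at 9.85, 16.5 and 8.19 FPKM in pXEN cells and at no more than 1.75 FPKM in any ESC library.

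Genes of the PERK arm and the amino acid response were mostly lowest in nESCs. In pXEN cells 7 of 9 were higher and 1 lower than in nESCs, and 2 were higher and 2 lower than in primed ESCs (1 and 3 with library totals). The latter, 22.2% each, lay near the 23.9% and 24.4% of all tested genes. CHAC1, which degrades glutathione, was at 37.2, 12.5 and 33.7 FPKM in pXEN cells, 0 in both nESC libraries and 43.6 and 55.6 in primed ESCs, at least 165-fold above nESCs in pXEN cells and at least 293-fold in primed ESCs. TRIB3, a pseudokinase induced by the same response, was at 2.40, 0.438 and 2.26 FPKM in pXEN cells, 0 and 0.0539 in nESCs and 9.11 and 10.1 in primed ESCs, where pXEN cells were lower (-2.50, SE 0.57, adjusted p = 0.00766). PPP1R15A, the phosphatase subunit that reverses PERK signalling, was instead highest in pXEN cells, at 22.6, 40.1 and 26.9 FPKM against 7.71 and 7.17 in nESCs and 14.0 and 15.4 in primed ESCs.

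Of 21 further vesicle coat and cargo receptor genes, 14 were higher and 1 lower in pXEN cells than in nESCs (12 and 3 with library totals or upper-quartile scaling), and 9 higher and 2 lower than in primed ESCs. SURF4, a cargo receptor, was higher by 1.35 (SE 0.23, adjusted p = 0.00158) and 0.63 (SE 0.22, adjusted p = 0.0466). COPB2 and COPG1, subunits of the COPI coat that works from the Golgi back to the ER, and TMED9, a vesicle protein of the p24 family, were higher in both comparisons. Their log2 fold changes were 1.14, 1.13 and 1.22 against nESCs and 1.06, 0.88 and 0.69 against primed ESCs. Of 14 signal recognition and translocon genes, 2 were higher and 3 lower in each pXEN comparison (with library totals 1 and 5 against nESCs, and 2 and 5 against primed ESCs). These shares, 14.3% and 21.4%, lay below those of all tested genes. TRAM2, linked to collagen translocation, was higher (3.03, SE 0.20, adjusted p = 1.05e-05, and 1.40, SE 0.18, adjusted p = 0.000432), and SEC61A2 was lower (-0.97 and -0.64).

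The remaining lists were mixed. All tested genes gave 28.3% higher and 26.2% lower against nESCs, and 23.9% and 24.4% against primed ESCs. The folding genes higher than in nESCs (30%) and the glycosylation genes against primed ESCs (25% and 16.7%) lay near or below those shares. Of 12 glycosylation and quality control genes, 4 were higher and 1 lower than in nESCs, which became 3 higher and 4 lower with either library totals or upper-quartile scaling, and 3 were higher and 2 lower than in primed ESCs. MAGT1 and TUSC3 encode alternative oxidoreductase subunits of the oligosaccharyltransferase. MAGT1 was higher in pXEN cells than in nESCs (1.74, SE 0.17, adjusted p = 8.32e-05), and TUSC3 was higher than in primed ESCs (0.75, SE 0.12, adjusted p = 0.00151). GANAB, a glucosidase II subunit, was higher in both (0.68 and 0.70), and UGGT1, which re-glucosylates unfolded glycoproteins, was lower than in primed ESCs (-0.71). Of 10 further folding genes, 3 were higher than in nESCs and none lower (3 and 2 with library totals or upper-quartile scaling), and 1 was higher and 4 lower than in primed ESCs. FKBP14, a prolyl isomerase, was higher in both (1.41 and 1.48), FKBP2 was higher than in nESCs (0.98), and TMX1, a membrane thioredoxin, was lower than in primed ESCs (-0.74). Of 10 further degradation genes, 5 were higher and 1 lower than in nESCs (2 and 3 with library totals, 3 and 3 with upper-quartile scaling), and 1 was higher and 2 lower than in primed ESCs. ERLEC1, a lectin, was higher than in nESCs (1.40), UBE2J1, a ubiquitin-conjugating enzyme, was higher than in primed ESCs (0.59), and VIMP was higher than in nESCs (0.87) and lower than in primed ESCs (-1.82).

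Summed over the 52 members, the level was 6349 ± 232 FPKM in pXEN cells (SD, n = 3), 3359 ± 87.1 in nESCs (SD, n = 2) and 6047 ± 205 in primed ESCs (SD, n = 2). pXEN cells were 1.89-fold above nESCs, and their libraries overlapped those of primed ESCs at a ratio of 1.05. Without pXEN line 2 the ratios were 1.85 and 1.03. As a share of all summed FPKM the members took 1.03% ± 0.0284 in pXEN cells, 0.571% ± 0.00546 in nESCs and 1.05% ± 0.0126 in primed ESCs. The ratio of pXEN cells to primed ESCs was 0.910 without SERPINH1, 0.981 as TPM (FPKM scaled to a fixed sum per library) and 0.949 as CPM, so its direction depended on that gene and on the unit. With PDIA3, PDIA6 and SEC61A1 added, a choice made after seeing the data, it was 0.995. By role, the sum in pXEN cells was 3.63-fold above nESCs for oxidative folding, 2.62-fold for sensors and transcription factors, 2.41-fold for chaperones, 1.89-fold for the oligosaccharyltransferase, 1.60-fold for COPII genes, 1.5-fold for degradation and 1.15-fold for translocation. Against primed ESCs these sums were 1.34-, 1.43-, 0.954-, 1.17-, 1.29-, 1.34- and 1.04-fold, with overlapping libraries for chaperones and translocation. The values for oxidative folding rest on leaving out PDIA3 and PDIA6, which exceed the 4 summed members. With both added, its sum was 2.41-fold above nESCs and 0.893-fold that of primed ESCs, with every pXEN library below the primed ones. The chaperone value against primed ESCs rests on SERPINH1, without which the sum was 0.673-fold that of primed ESCs, again with every pXEN library below, and 2.06-fold above nESCs. Without SEL1L the degradation sum was 1.04-fold and 1.06-fold, and pXEN libraries overlapped those of both ESC types. Without PDIA4 the 3 other oxidative folding members summed to 2.02-fold the level of primed ESCs.

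The listed cargo differed by a larger factor. Its lists hold products of visceral and parietal endoderm and were chosen with earlier results known, so that their high level in pXEN cells is a description and no independent result. Transcripts of 26 plasma-type secreted proteins and 13 basement membrane and matrix proteins together summed to 18545 ± 810 FPKM in pXEN cells (SD, n = 3), 353 ± 85.9 in nESCs (SD, n = 2) and 940 ± 62.6 in primed ESCs (SD, n = 2). That was 52.6-fold above nESCs and 19.7-fold above primed ESCs, where the machinery was 1.89-fold and 1.05-fold. The cargo values were 51.4-fold and 19.3-fold without pXEN line 2. Summed as CPM (counts scaled to library size), which do not divide by gene length, cargo was 27.1-fold above nESCs, and without the leading gene of each list it was 8.33-fold above primed ESCs. Cargo per unit of machinery was therefore 2.92 ± 0.0214 in pXEN cells, 0.105 ± 0.0283 in nESCs and 0.155 ± 0.00509 in primed ESCs, and no pXEN library overlapped the others. The 3 pXEN lines gave ratios of 2.92, 2.94 and 2.90. The cargo lists moved oppositely among these lines: per unit of machinery, plasma-type cargo was 1.60, 1.86 and 1.68 and matrix cargo 1.32, 1.08 and 1.22, with line 2 apart in both. These ratios were 473-fold and 11.9-fold those of nESCs. The ratio in pXEN cells was 27.7-fold that of nESCs, or 14.6-fold as CPM. Between the ESC types the ratio had no fixed direction, at 1.48-fold in primed ESCs over nESCs and 0.786-fold as CPM. With 3 lines against 2, an exact permutation test could not fall below a two-sided p of 0.1, and none was made.

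The cargo lists differed from each other. Plasma-type cargo summed to 10902 ± 1198 FPKM in pXEN cells, 12.2 ± 0.861 in nESCs and 68.0 ± 8.94 in primed ESCs, and matrix cargo to 7643 ± 621, 340 ± 86.8 and 872 ± 53.7 FPKM. APOE, a lipid carrier, led the plasma list at 8585, 7973 and 8928 FPKM in pXEN cells, 1.05 and 1.24 in nESCs and 45.9 and 62.1 in primed ESCs. FN1, the matrix glycoprotein fibronectin, led the matrix list at 3023, 3017 and 2729 FPKM in pXEN cells, 133 and 204 in nESCs and 29.6 and 31.4 in primed ESCs. Without APOE, FN1 and SERPINH1, the leading genes of their lists, the cargo ratio per unit of machinery was 9.13-fold above primed ESCs in place of 18.8-fold. Secreted genes outside these 2 lists were not summed.

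**Figure D3:**
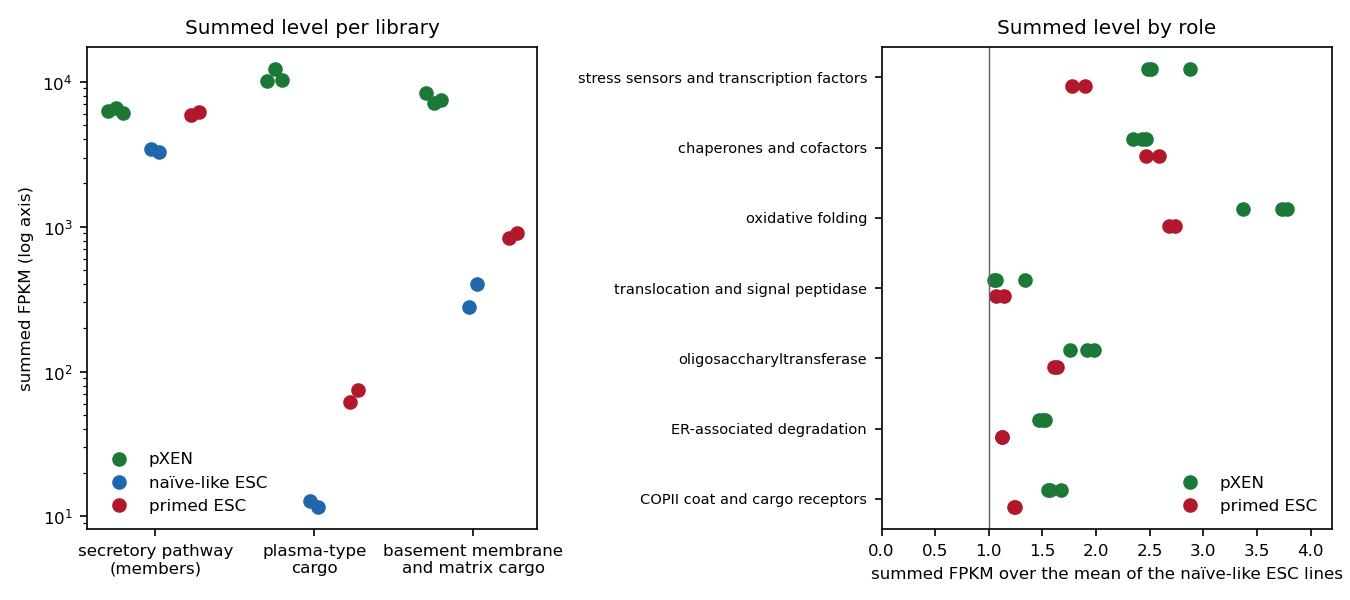
Left, summed FPKM per library on a log axis for the 52 members and for 26 plasma-type and 13 matrix cargo genes. Right, summed FPKM of each role in pXEN and primed ESC libraries over the naïve-like ESC mean, where 1 marks no difference. Member sums of pXEN cells and primed ESCs overlapped, whereas the summed cargo of pXEN cells was 52.6-fold that of naïve-like ESCs (27.1-fold as CPM) and 19.7-fold that of primed ESCs (8.33-fold without the leading genes); the oxidative folding points leave out PDIA3 and PDIA6.

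The spread among pXEN lines is given as a ratio, without a test. The ratio of the highest to the lowest pXEN line had a median of 1.21 over the 51 tested members, against 1.37 over the 15027 tested genes averaging 10 or more counts in pXEN cells. It exceeded 2 in 4 members (7.84%, against 17.8%): CREB3L3, EDEM1, SDF2L1 and KDELR3. In all 4 line 2 was the line apart, lowest for CREB3L3 and EDEM1 and highest for SDF2L1 and KDELR3.

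A chromosome also set line 2 apart. On chromosome 13 the median log2 difference of line 2 from the mean of lines 1 and 3 was -0.37 over 1129 tested genes, against 0.03 over all tested genes and between 0 and 0.10 on every other chromosome from 1 to 18 and X. Of the 9 tested members on chromosome 13, 8 were lower in line 2, with a median of -0.21, and EDEM1, PDIA5, STT3B and DNAJB11 were lowest. Of the 42 members elsewhere, 13 were lower, with a median of 0.14. Without the 9 chromosome 13 members, a choice made after seeing the data, 30 members were higher and 4 lower in pXEN cells than in nESCs, and 19 higher and 14 lower than in primed ESCs. The part that the fibroblast markers and chromosome 13 play in the line 2 values was not tested.

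**Figure D4:**
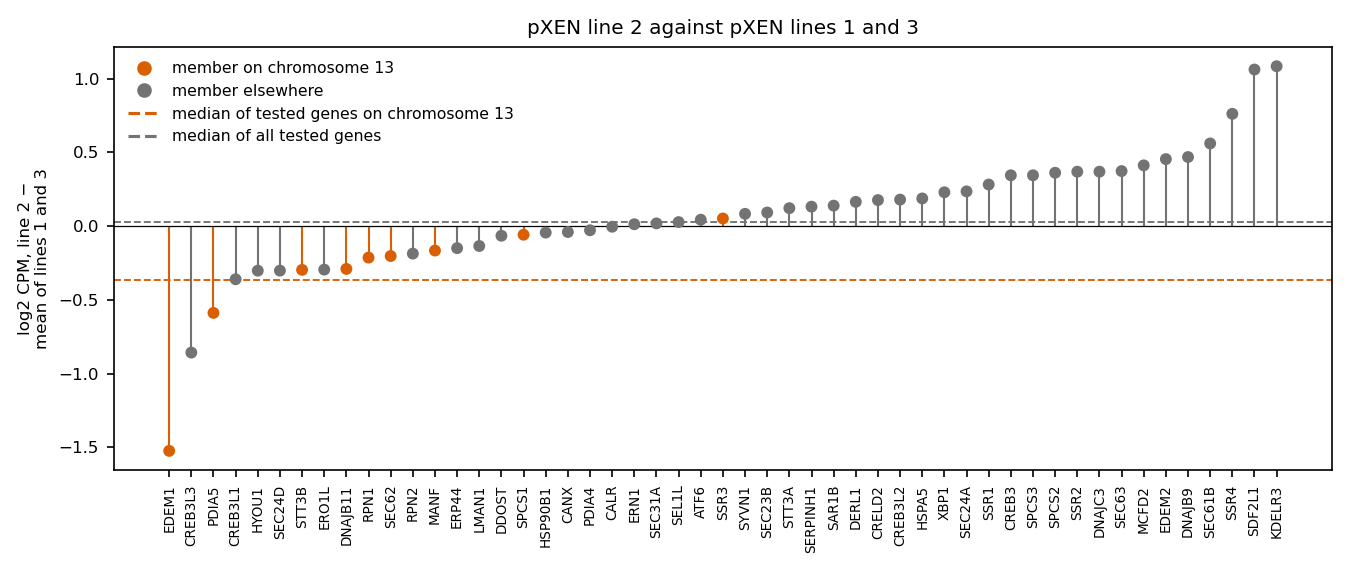
Difference in log2 CPM between pXEN line 2 and the mean of lines 1 and 3 for each tested member, ordered by size, with members on chromosome 13 in orange and dashed lines at the medians of chromosome 13 (-0.37) and of all tested genes (0.03). Of 9 members on chromosome 13, 8 lie below 0.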

How the data were processed

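RNA was taken from 7 lines, 1 directional, rRNA-depleted library each. The deposited count table holds whole-number counts per gene made by the authors, and the submitters' processing notes name HISAT2 2.0.5, featureCounts 1.5.0-p3, edgeR 3.22.5 and the pig build Sscrofa10.2. The strand setting of the counting is not given in the sources used here. The deposited FPKM values were made by the authors from the same counts: each equals the count divided by the listed gene length and by a constant per library that was 0.913 to 1.08 times the library's total count. No column belonged to other samples (0 columns), and both tables were used in full. Libraries held 10408164 to 12995720 counts, so that a floor of 3 counts lay at 0.231 to 0.288 CPM.

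Counts were tested with edgeR 4.0.16 (R 4.3.3) by the quasi-likelihood test, with TMM scaling, filterByExpr, 1 model over 3 groups without covariates, and Benjamini-Hochberg adjustment over 17447 genes, called at an adjusted p under 0.05. The common biological coefficient of variation was 0.223. The code was tested on simulated data. Levels were compared between genes only as FPKM, and sums got no p. Ratios of few counts have exact 95% binomial intervals. Members given with every library were those called in a pXEN comparison with a log2 fold change of at least 1 in size, the highest of each role and those removed by the filter. DNAJB9, PDIA3, PDIA6, KRTCAP2, OSTC and DAD1 were named after their values were seen. Members given by log2 fold change alone, among them SEC62, SPCS2, MANF, STT3B, LMAN1 and SAR1B, also fell outside this rule and were not fixed beforehand. Of the other lists, the 2 called genes with the largest log2 fold change per pXEN comparison are named; ERO1L and other names are as the table lists them. Members and lists were chosen with earlier results of these data known. Of the members, 8 overlap another listed gene (HSPA5, HSP90B1, ERO1L, SEC61B, SSR4, DDOST, SYVN1 and SEC31A), 5 of them on the same strand, and their counts are less certain.

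Alternatives were upper-quartile, DESeq2 size factor and library total scaling, DESeq2 1.42.0, other count filters, fits of 2 groups only, a replicate block, limma 3.58.1 on log2(FPKM + 0.1) and log2(FPKM + 1), and each library left out. Promoter and protein sequences were not analysed here.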

Additional observations from a re-analysis of the deposited data

How the results depend on the processing

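Upper-quartile scaling and library totals moved the median log2 fold change of all genes to -0.16 and -0.18 for pXEN cells against nESCs and to -0.09 and -0.19 against primed ESCs. The member medians became 0.72 and 0.70 against nESCs and 0.17 and 0.079 against primed ESCs, and 0.61 for primed ESCs against nESCs with upper-quartile scaling. SSR2 against nESCs turned to -0.012 with library totals. Members called lower in primed ESCs than in nESCs numbered 1, but 3 with upper-quartile scaling, library totals, DESeq2 or the fit of 2 groups, and 2 with at least 10 counts in every library or limma on log2(FPKM + 0.1).

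The summed level of the members in pXEN cells over primed ESCs turned below 1, to 0.981 as TPM, 0.910 without the leading gene and 0.949 as CPM. Without the leading gene of each list the member sums were 1.72-fold (pXEN cells over nESCs) and 1.89-fold (primed ESCs over nESCs), and the last was 1.945-fold as CPM. With the genes matched by identifier the member sums were 0.995-fold (pXEN cells over primed ESCs) and 1.93-fold (primed ESCs over nESCs), and those of oxidative folding 2.41-fold (pXEN cells over nESCs) and 0.893-fold (over primed ESCs). Without SEL1L the degradation sum of primed ESCs over nESCs turned to 0.978-fold. Cargo sums became 38.9-fold and 27.1-fold (pXEN cells over nESCs), 8.33-fold and 17.65-fold (over primed ESCs) and 4.68-fold and 1.535-fold (primed ESCs over nESCs) without the leading genes and as CPM. The cargo ratio became 14.6-fold over nESCs as CPM, 9.13-fold over primed ESCs without the leading genes, and for primed ESCs over nESCs 2.47-fold without them and 0.786-fold as CPM. The cause was not tested.

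Leaving out 1 library at a time gave 2 to 5 members lower than in nESCs, 13 to 24 higher and 8 to 20 lower than in primed ESCs, and 1 to 3 lower in primed ESCs than in nESCs. The lows of 2, 13 and 8 came without nESC line 1 and primed line 2. Directions of differences that were not called turned for ERN1 (-0.13 to 0.0050, pXEN cells against primed ESCs), and, for primed ESCs against nESCs, ATF6 (-0.095 to 0.41), ERO1L (-0.24 to 0.064) and SERPINH1 (-0.039 to 0.0043).

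The labels tie lines across groups only by number and do not give which naïve-like line each primed line came from. The ESC groups may therefore share origin, which was not modelled. Same-numbered lines did not deviate together (correlations of -0.009 to 0.044). With the replicate block 38 members were higher and 3 lower than in nESCs, 19 and 11 against primed ESCs, and 27 and 1 between ESC types. Of the named genes, the block ended the calls of CREB3L1, CALR, PDIA4 and RPN1 against primed ESCs. Across named genes and alternatives 1267 values kept direction and side of the threshold, 48 lost a call, 2 gained one and 5 turned. With 3 lines against 2, only lines of these cultures and passages are described.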
